A study of Homo sapiens with 10 samples.

Results

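The nuclear-encoded subunits of the mitochondrial respiratory chain and ATP synthase were followed through 10 poly(A) RNA libraries of the human lung cancer cell lines H460 and A549. Members were the protein-coding genes whose symbol began with NDUFA, NDUFB, NDUFC, NDUFS or NDUFV and a digit, with UQCR or ATP5, or with COX4 to COX8 and a letter, together with SDHA to SDHD. This gave 89 of 46427 genes, with 37 assigned to complex I, 4 to complex II, 9 to complex III, 19 to complex IV and 20 to complex V. H460 cells were sequenced as 3 parental libraries in 2D culture in serum-containing medium, as 1 library of cells that survived cisplatin (CR), 2 of cells that survived paclitaxel (PR) and 1 of cells that survived doxorubicin (DR), and as 1 library of tumor spheres (TS), which the sample titles call CTC. A549 cells were sequenced once in 2D culture and once as TS. Drug-treated cells were kept in fresh medium after the drug and then re-plated, so that the CR, PR and DR libraries hold attached survivors, and TS cells had been passaged in suspension in medium with B27, bFGF and EGF. The sources do not say whether replicate libraries came from separate cultures, and p-values measure only the spread between them. In bulk RNA, fewer cells of a kind and less RNA per cell cannot be told apart.

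Complexes I to IV pass electrons from NADH or succinate to oxygen, and complexes I, III and IV pump protons across the inner mitochondrial membrane while they do so. Complex V, the ATP synthase, lets the protons return through a ring of c subunits and uses that flow to make ATP in its F1 head. A few subunits of complexes I, III, IV and V are encoded in mitochondrial DNA, and all the others, with every subunit of complex II, are nuclear genes whose promoters often carry sites for NRF1, YY1 and ETS factors such as GABP.

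Promoter windows of some members are printed to show such sites beside genes that were lower in drug-resistant cells and 1 gene that was not. RefSeq windows on GRCh38.p14, from 250 bases before to 50 bases after the start of transcription, were matched for 72 of the 89 members. The NRF1 core GCATGCGC stood in 14 of them (19.4%), on either strand, against 3.68% of the windows of 27305 genes. The YY1 core AAGATGGCG stood in 9 (12.5%) against 2.14%, the ETS core CCGGAAGT in 12 (16.7%) against 4.95%, and the ERR core TCAAGGTCA in 1 (1.39%) against 0.432%. The 27305 genes are more than the 19672 protein-coding genes of the series, so they are not all protein-coding, as the members are. The shares were not compared within protein-coding genes alone. The 4 motifs were searched as exact letters, no motif of the 4 contains another, and a match is a description and not a measured site. In the windows below, read 5′ to 3′ along the gene, capitals mark the NRF1 core (also as its reverse complement GCGCATGC) and the YY1 core. The first 4 genes were called lower in drug-resistant cells, and COX6A1 was not.
SDHB, chr1:17054003-17054252, minus strand: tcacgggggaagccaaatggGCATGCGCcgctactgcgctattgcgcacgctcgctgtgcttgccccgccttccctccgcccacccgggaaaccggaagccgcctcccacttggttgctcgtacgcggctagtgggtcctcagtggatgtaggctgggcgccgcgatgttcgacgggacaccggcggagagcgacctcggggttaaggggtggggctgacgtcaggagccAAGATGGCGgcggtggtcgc
NDUFS7, chr19:1383814-1383936, plus strand: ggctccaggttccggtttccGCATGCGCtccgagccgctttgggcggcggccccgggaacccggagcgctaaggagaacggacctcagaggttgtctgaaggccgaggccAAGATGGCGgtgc
ATP5ME, chr4:674291-674410, minus strand: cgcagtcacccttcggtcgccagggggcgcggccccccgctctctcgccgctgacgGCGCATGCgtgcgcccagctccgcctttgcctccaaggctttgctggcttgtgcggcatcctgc
NDUFA9, chr12:4649044-4649143, plus strand: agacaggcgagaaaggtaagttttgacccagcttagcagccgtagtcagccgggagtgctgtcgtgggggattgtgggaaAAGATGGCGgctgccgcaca
COX6A1, chr12:120437863-120437982, plus strand: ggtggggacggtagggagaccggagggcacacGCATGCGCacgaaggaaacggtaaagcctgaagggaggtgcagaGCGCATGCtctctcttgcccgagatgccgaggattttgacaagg

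SDHB and NDUFS7 each held 1 NRF1 and 1 YY1 core in these stretches, ATP5ME held 1 NRF1 core, NDUFA9 held 1 YY1 core and COX6A1 held 2 NRF1 cores. Among the 20 members with a window that were called lower in drug-resistant cells, 5 held the NRF1 core, 4 the YY1 core and 3 the ETS core. Among the 52 other members with a window the numbers were 9, 5 and 9.

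Library totals lay between 59499787 and 89541774 counted reads. On the FPKM scale, which is per transcript length and library size, 79 members had at least 1 in every library, 8 were under 1 in every library, and 3 of those had no count anywhere. The median over the 79 genes was 92.9 FPKM in parental cells (mean of 3 libraries), and ATP5F1B was the highest member at 1030 ± 161 (SD, n = 3). Parental libraries differed among themselves. The median member lay 0.27 above the parental mean in parental replicate 2 and 0.23 below it in parental replicate 3, in log2 CPM, while all genes lay within 0.03 of it in both. The library names take 2 forms, which may mark a batch: one covers parental replicates 1 and 3, PR replicate 1, TS and both A549 libraries, and the other parental replicate 2, PR replicate 2, CR and DR.

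The lines were checked against markers of lung epithelium and of other cell types. Of 5 epithelial markers, KRT8 and KRT18 were at least 283 and 190 FPKM in every library. KRT19 was at 138 to 738 FPKM in H460, while the A549 libraries had 3.57 in 2D culture and 68.3 as TS. EPCAM was at most 0.114 FPKM in H460 and 0.923 and 1.04 in A549, and CDH1 was at most 0.0266 FPKM in H460 and at least 9.29 in A549. Of the lung markers no summed level passed 0.529 FPKM. The pan-leukocyte gene PTPRC was at most 0.157 FPKM, with summed leukocyte markers of 2.84 to 9.49 FPKM in parental and 12.0 to 17.9 in drug-resistant libraries, nearly all of it CD14. It was 8.82 in H460 TS and 3.06 in A549 2D cells, and A549 TS cells had 48.3, of which LYZ made up 37.7 and CD14 10.1. Summed fibroblast markers were 14.1 to 28.2 FPKM in parental and 6.10 to 21.1 in drug-resistant libraries, 28.0 in H460 TS and 3.92 and 10.8 in A549 2D and TS cells. Endothelial markers stayed at or under 0.484 FPKM in every library, and erythroid markers were 2.55 to 7.60 FPKM in parental and 0.187 to 0.871 in drug-resistant libraries, 5.54 in H460 TS and 0.530 and 0.312 in A549 2D and TS cells. The part of these genes in the results below was not tested.

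The study set survivors of 3 drugs and TS cells against cells in 2D culture. Drug-resistant H460 cells, pooled over the drugs, had lower levels of many respiratory subunits than parental cells. Of 82 members tested, 23 were lower and 1 was higher (edgeR, adjusted p under 0.05), where 15.3% of all 18398 genes tested were called lower and 18.5% higher. The members' median log2 fold change was -0.48 against 0.06 for all genes, and 71 of the 82 estimates were below 0. In FPKM, 22 members were lower in each of the 4 drug-resistant libraries than in any parental library, against 13.6% of all genes tested, and 1 was higher in each, against 25.8%. The summed TPM of the 89 genes made up 2.24%, 2.68% and 2.00% of the parental libraries, and 1.85% of CR, 1.59% and 1.64% of PR and 2.12% of DR. The sum was thus lowest in PR, while DR lay within the parental range.

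**Figure D1:**
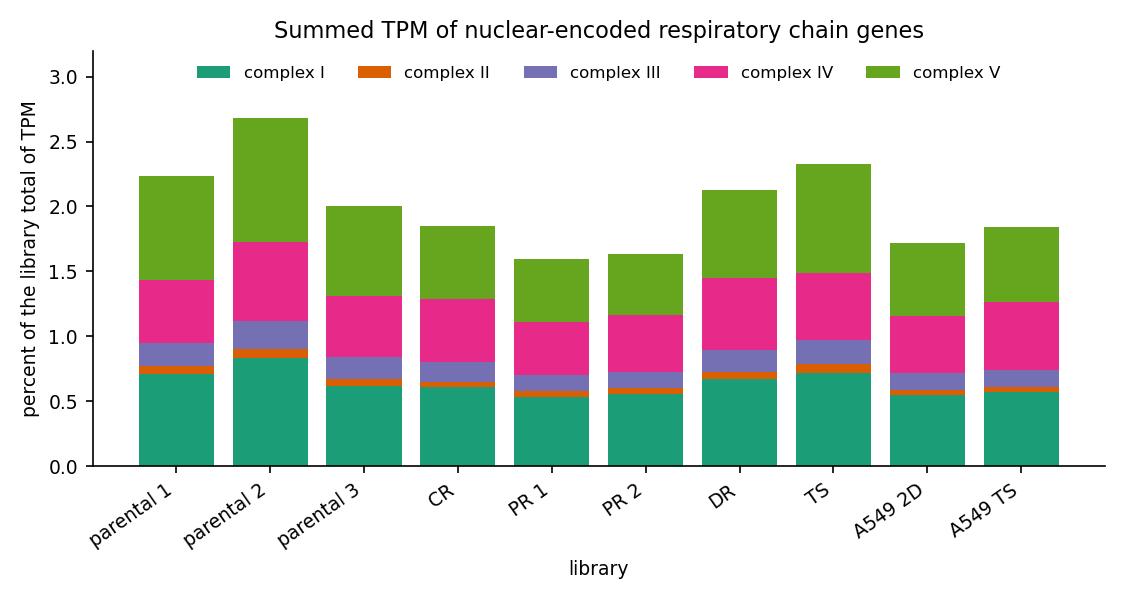
Summed TPM of the 89 genes as a percent of each library's total (y axis), stacked by complex, for each of the 10 libraries (x axis). The PR libraries stand lowest at 1.59% and 1.64% and parental replicate 2 highest at 2.68%, and DR at 2.12% lies above parental replicate 3 at 2.00%.

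Complex I, the NADH dehydrogenase, had 9 of its 37 members called lower (24.3%, against 15.3% of all genes) and a median log2 fold change of -0.43. The calls lay in the NADH-oxidising N module (4 of 9 genes), the ubiquinone-reducing Q module (2 of 7) and the membrane arm (3 of 20). The membrane arm's share of 15% was thus near that of all genes. NDUFC1 (NCBI Gene 4717, chr4:139266880-139302551), a small membrane arm subunit, had an FPKM of 45.5, 58.9 and 33.9 in parental libraries and of 17.1 in CR, 18.1 and 20.6 in PR and 20.5 in DR. The groups did not overlap, and the gene was 2.42-fold lower in mean FPKM, with a log2 fold change of -1.23 (standard error 0.19, edgeR adjusted p = 0.00124). NDUFA9, a Q module subunit, was at 9.33, 10.2 and 7.92 FPKM in parental libraries and at 4.71 to 5.66 in the 4 drug-resistant ones, again without overlap (log2 fold change -0.95, standard error 0.16, edgeR adjusted p = 0.00205). NDUFB10, in the membrane arm, fell from 163 to 186 FPKM to 86.9 to 117 (log2 fold change -0.92, edgeR adjusted p = 0.00454).

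Among the catalytic core subunits of complex I, which carry the flavin and the iron-sulfur clusters or line the quinone site, NDUFS7 and NDUFS1 were lower. NDUFS7 fell by 0.85 on the log2 scale (edgeR adjusted p = 0.00813) and NDUFS1 by 0.63 (edgeR adjusted p = 0.032). Core subunits that were not called included NDUFS3, NDUFV1, NDUFV2 and NDUFS8, with log2 fold changes of -0.56, -0.45, -0.33 and -0.08. The accessory subunits NDUFS4 and NDUFS6, NDUFA12 and NDUFA3 completed the calls, with log2 fold changes between -0.69 and -0.59. The one higher member, NDUFC2-KCTD14, is a read-through transcript that shares exons with NDUFC2, so its reads cannot be separated from that gene with certainty. It had 9, 3 and 4 reads in parental libraries and 14 to 38 in drug-resistant ones, while NDUFC2 itself had a log2 fold change of -0.23 and was not called.

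In complex II, which oxidises succinate and is also an enzyme of the TCA cycle, 1 of 4 genes was called. SDHB (NCBI Gene 6390, chr1:17018722-17054170), the iron-sulfur subunit, had an FPKM of 112, 140 and 83.2 in parental libraries and of 51.8 in CR, 55.5 and 60.7 in PR and 69.4 in DR. No drug-resistant library reached a parental one, and the gene was 1.88-fold lower in mean FPKM (log2 fold change -1.01, standard error 0.19, edgeR adjusted p = 0.00362). The flavoprotein SDHA and the membrane anchor SDHD had log2 fold changes of -0.51 and -0.70 and missed the threshold. SDHC, the other anchor, was at 28.0 to 70.6 FPKM in parental and 43.8 to 66.4 in drug-resistant libraries, with a log2 fold change of 0.16 (standard error 0.19) and full overlap of the groups.

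Complex III, which passes electrons from ubiquinol to cytochrome c, had 1 of 9 genes called lower at a median of -0.57. That share, 11.1%, was under the 15.3% of all genes. UQCRFS1, the Rieske iron-sulfur protein, had an FPKM of 27.9, 33.7 and 21.9 in parental libraries and of 15.6 in CR, 17.2 and 16.7 in PR and 21.9 in DR, so that only DR came up to the lowest parental library. Its log2 fold change was -0.74 (standard error 0.20, edgeR adjusted p = 0.0156). Several other genes of the complex had similar estimates just outside the threshold, such as UQCR10 and UQCRH at -0.57 each and UQCRC2 at -0.71. UQCR11 had the highest estimate, 0.34 (standard error 0.22, not called), and is named after its value was seen. UQCRHL is a close copy of UQCRH, and their reads may be split between them.

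Complex IV, cytochrome c oxidase, had the median nearest 0, at -0.23, with 4 of 13 tested genes lower. COX8A had an FPKM of 187, 251 and 189 in parental libraries and of 110 to 164 in drug-resistant ones (log2 fold change -0.76, standard error 0.20, edgeR adjusted p = 0.0159). COX7B and COX5A, which also belong to the usual enzyme, fell by 0.70 and 0.66 on the log2 scale. The regulatory subunit COX4I1 was at 258, 346 and 267 FPKM in parental libraries and at 344 in CR, 252 and 322 in PR and 335 in DR. These ranges overlapped nearly whole, and its log2 fold change was 0.02 (standard error 0.21). COX7A2 and COX6A1 were likewise not called, at 0.21 and -0.13, and COX6B1 stood at -0.45.

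The tissue-restricted partners of the complex IV subunits were hardly seen. COX4I2, COX7A1 and COX7B2 had no read in any library, which allows up to 3 reads per library. COX6A2 had 2 reads in 1 library, COX8C had 4 in 1 library, and COX6B2 reached 0.294 FPKM in A549 2D cells and was not tested in the pooled drug comparison. COX7A2L, a factor that joins complexes III and IV, was at 31.5 to 68.1 FPKM in parental cells and had a log2 fold change of -0.23. NDUFA4L2, a paralogue of NDUFA4 known as a hypoxia-induced gene, was at a low level and was called lower. It was at 1.45, 2.27 and 2.51 FPKM in parental libraries and at 1.07 in CR, 0.901 and 0.98 in PR and 0.658 in DR, without overlap (log2 fold change -1.32, standard error 0.32, edgeR adjusted p = 0.0113). NDUFA4 itself, at 52.2 to 86.8 FPKM in parental cells, had a log2 fold change of -0.03.

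**Figure D2:**
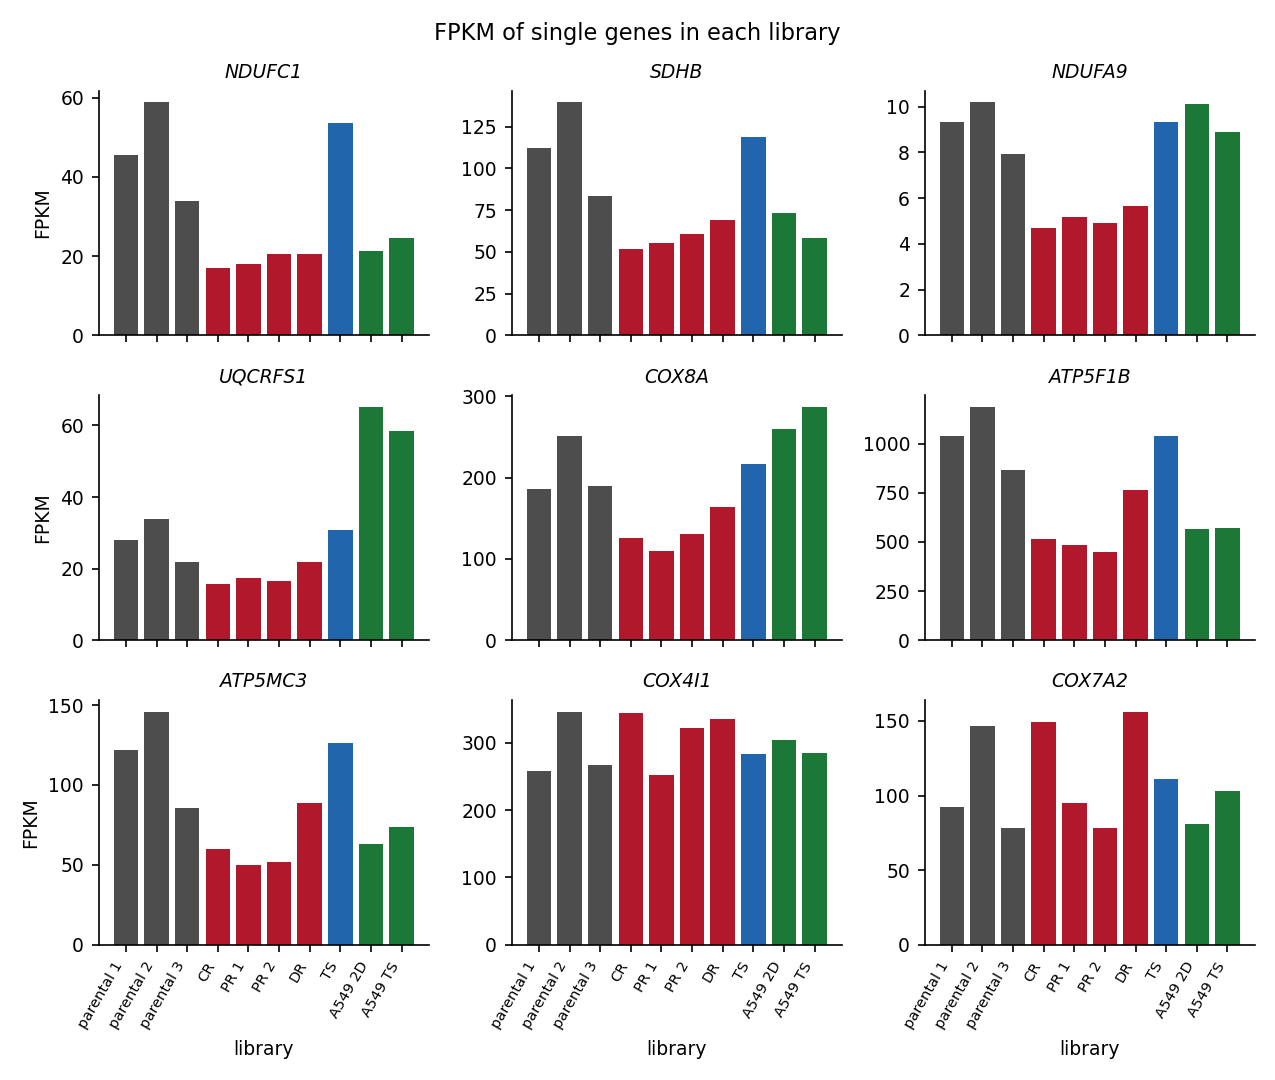
FPKM (y axis, from 0) of 9 genes in each library (x axis), with parental libraries in grey, drug-resistant ones in red, H460 TS in blue and A549 in green. NDUFC1, SDHB and NDUFA9 are lower in each of the 4 drug-resistant libraries than in any parental one, COX4I1 and COX7A2 overlap, and UQCRFS1 is highest in A549 at 65.2 and 58.4 FPKM.

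Complex V had the most calls for its size, 8 of 19 tested, with a median of -0.55. Of the 5 genes of the catalytic F1 head, 4 were lower. ATP5F1B (NCBI Gene 506, chr12:56638175-56646068), the catalytic beta subunit, had an FPKM of 1037, 1187 and 866 in parental libraries and of 516 in CR, 484 and 449 in PR and 765 in DR. It was 1.86-fold lower in mean FPKM with no overlap, and DR lay nearest to the parental cells (log2 fold change -0.99, standard error 0.25, edgeR adjusted p = 0.0123). The alpha subunit ATP5F1A, gamma ATP5F1C and delta ATP5F1D fell by 0.73, 0.87 and 0.66 on the log2 scale, while the epsilon subunit ATP5F1E stood at -0.19 and was not called.

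Of the 3 genes for the c ring, whose mature proteins are the same, ATP5MC3 and ATP5MC1 were lower. ATP5MC3 was at 122, 146 and 85.7 FPKM in parental libraries and at 49.8 and 51.8 in PR and 88.7 in DR, with CR between them, so that DR passed the lowest parental library (log2 fold change -0.98, standard error 0.26, edgeR adjusted p = 0.0169). ATP5MC1 had a log2 fold change of -0.85 at the edge of the threshold (edgeR adjusted p = 0.0498), and ATP5MC2 had one of -0.50 and was not called. Reads may be shared within this family. In the stalk and the Fo part, ATP5ME fell from 198 to 248 FPKM to 110 to 138 (log2 fold change -0.90, edgeR adjusted p = 0.00514) and ATP5PB, the peripheral stalk subunit b, fell by 0.83 on the log2 scale. The inhibitor ATP5IF1, which blocks ATP hydrolysis by the enzyme, had a log2 fold change of -0.22 and was not called.

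**Figure D3:**
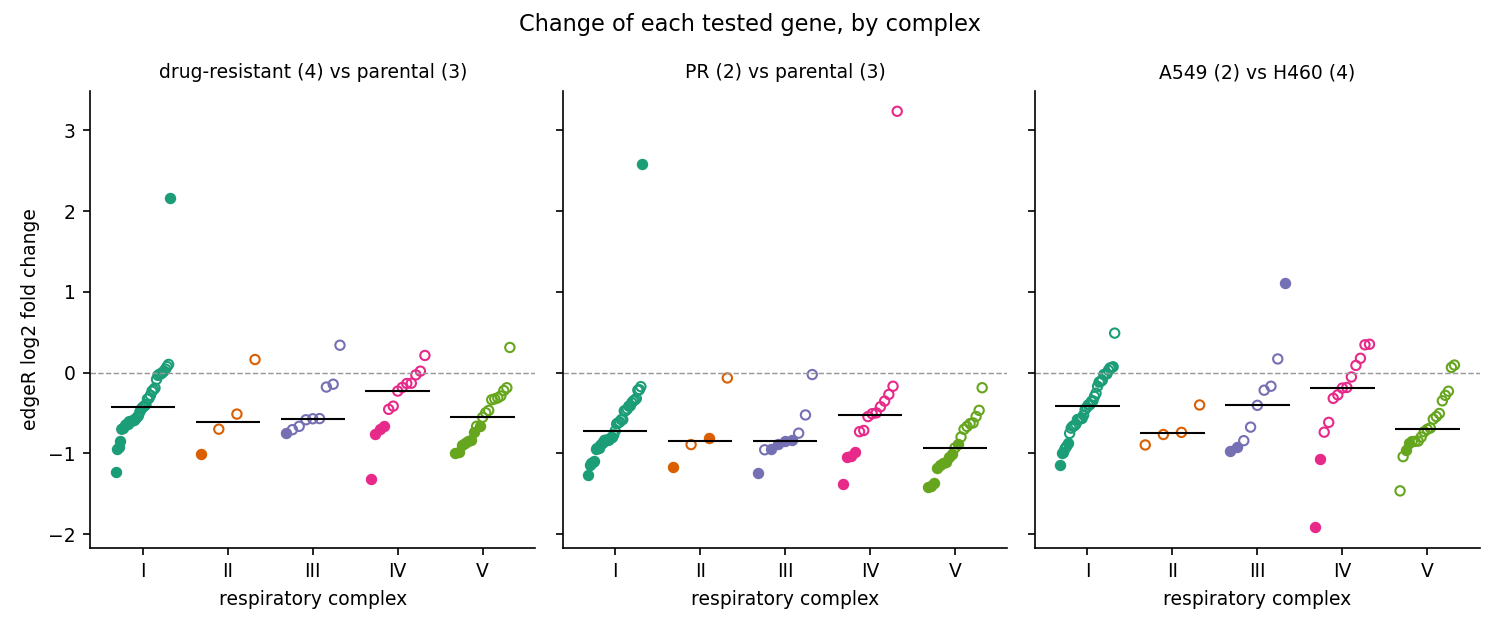
edgeR log2 fold change (y axis) of each tested gene, by complex (x axis), for drug-resistant and PR cells against parental cells and for A549 against H460; filled points are called, open points are not, and lines are medians. In drug-resistant cells the medians run from -0.61 in complex II to -0.23 in complex IV, and the filled point far above 0 in both drug panels is the read-through gene NDUFC2-KCTD14, and the open point above it in PR is COX6B2 on few reads.

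The make-up of the summed TPM by complex also differed, which was seen after the values. Complex V made up 36.1%, 35.6% and 34.5% of it in parental libraries, and 30.4% in CR, 30.4% and 28.8% in PR and 31.7% in DR. Complex IV made up 21.6% to 23.6% in parental and 25.6% to 26.9% in drug-resistant libraries, so that neither range overlapped. Complex I had 30.9% to 31.7% and 31.7% to 34.1%. These shares do not depend on scaling between libraries, they are given without a test, and complex V lay at 31.3% and 32.8% in A549 as well.

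**Figure D4:**
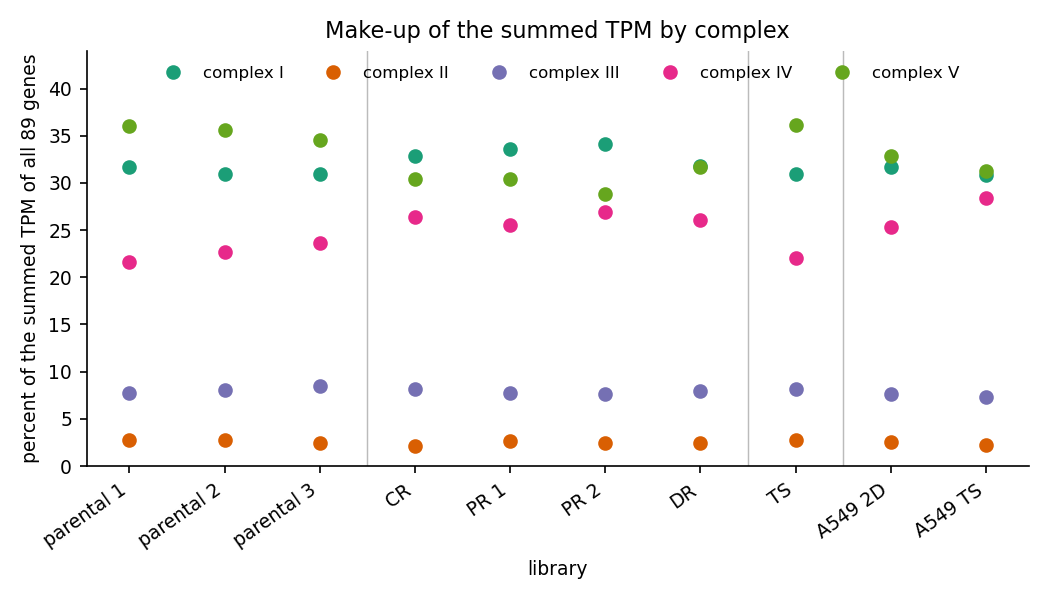
Percent of the summed TPM of the 89 genes (y axis) that each complex holds in each library (x axis), with vertical lines between parental, drug-resistant, TS and A549 libraries. Complex V runs from 34.5% to 36.1% in parental and from 28.8% to 31.7% in drug-resistant libraries, and complex IV is higher in the latter.

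The count of 23 lower members was 10 without parental replicate 2, 37 without parental replicate 3 and 14 without either PR library. It was 14 with upper-quartile factors, where all genes' median rose to 0.23. There 67.4% of all calls were higher, against 54.6% in the fit described. Without parental replicate 2, 10 of 83 members tested were lower against 2031 of 19642 genes, so the members' share was near that of all genes. Within the forms of library name, 78 of 82 members were lower than parental in both. The medians were -0.64 (1 drug-resistant against 2 parental libraries) and -0.66 (3 against 1), and NDUFC1 stood at -1.12 and -1.57. The lone drug-resistant library was PR replicate 1, where the members lay lowest (-0.79 in log2 CPM from the parental mean). The lone parental library was parental replicate 2, where they lay highest (0.27). Each form thus rests on 1 such library, and the same count over all genes was not made.

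PR cells, the only survivors with 2 libraries, showed the lowest levels. Of 83 members tested, 34 were lower and 1, NDUFC2-KCTD14, was higher, against 10.6% and 17.5% of 19430 genes, at a median log2 fold change of -0.80 against 0.05 for all genes. This comparison shares its parental and PR libraries with the pooled one, and 22 members were lower in both. Complex V had 10 of 19 genes lower, complex III 5 of 9, complex I 13 of 37, complex IV 4 of 14 and complex II 2 of 4. All 3 c ring genes were lower, with ATP5MC1 and ATP5MC3 at the largest falls.

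ATP5MC1 was at 164, 206 and 106 FPKM in parental and at 73.7 and 65.1 in PR libraries (log2 fold change -1.42, standard error 0.30, edgeR adjusted p = 0.00888), and at 100 in CR and 134 in DR. UQCRC2, a core protein of complex III, was at 146, 203 and 144 FPKM in parental and at 83.9 and 77.9 in PR libraries (log2 fold change -1.25, standard error 0.26, edgeR adjusted p = 0.00802), while DR at 145 lay within the parental range. SDHA, called here and not in the pooled comparison, fell by 0.81 on the log2 scale (edgeR adjusted p = 0.0475). ATP5F1B, ATP5MC3, ATP5ME, SDHB, NDUFC1 and NDUFA4L2 fell by between 1.17 and 1.41 on the log2 scale. Of these, NDUFA4L2 had only 91 and 78 reads in PR libraries. Its call held in 5 of 15 alternatives run, with log2 fold changes from -1.57 to -0.65. The calls of the others held in 14 or 15 of 16. COX6B2, at 0 to 5 reads in parental and 13 and 22 in PR libraries, was tested here and not called. The number of calls rests on having both PR libraries. With PR replicate 1 left out 1 member was lower (23 at an unadjusted p under 0.05), and with PR replicate 2 left out 0 were by edgeR (34 at an unadjusted p under 0.05), where the lone PR library is taken to vary like the others. Without parental replicate 2 there were 17. The members' median log2 fold change was -0.68 and -0.83 without PR replicate 1 and 2.

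CR and DR had 1 library each and no test. Set against the parental mean in log2(FPKM + 1), where the added 1 shrinks differences of low genes, CR had 2 of 81 members more than 2-fold lower, NDUFC1 and SDHB, where 12.9% of all genes were more than 2-fold apart in either direction. DR had 1, NDUFC1, against 11.4% of all genes. The members' median difference was -0.28 in CR and -0.12 in DR, against -0.05 and -0.03 for all genes, and 58 and 50 of the 81 were below 0. In log2 CPM it was -0.32 in CR and -0.20 in DR, beside -0.23 in parental replicate 3. DR thus lay within the spread of the parental libraries.

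Other genes of the pathway were read from lists, beside shares of 15.3% lower and 18.5% higher over all 18398 genes tested. The 13 mitochondrially encoded subunits gave no call in drug-resistant cells (0 by edgeR, 1 at an unadjusted p under 0.05) at a median log2 fold change of 0.06, and their share of TPM was 9.52% to 19.7% in parental and 13.0% to 17.8% in drug-resistant libraries. Assembly factors, which build the complexes, had 16 of 52 genes lower and none higher, at a median of -0.33. ECSIT and NDUFAF3, factors of complex I, fell by 0.96 and 1.02 on the log2 scale, and SDHAF3 of complex II fell by 0.99. Of 13 genes for electron carriers and their supply, 4 were lower, among them CYCS, which encodes cytochrome c, at -1.10, and the coenzyme Q synthesis genes COQ2 and PDSS1 at -1.67 and -1.51. Of 13 TCA cycle enzymes 7 were lower at a median of -0.52, with SUCLG2 at -1.37, FH at -1.27 and the citrate synthase gene CS at -1.16. Mitochondrial ribosomal proteins had 30 of 78 lower (median -0.55). Cytosolic ones had 3 of 78 lower (median -0.21), which at 3.85% was under the share of all genes. Still, 68 of these 78 estimates were below 0. In PR against parental cells, 76 of the 78 cytosolic ones were below 0, at a median of -0.54. There 9 were called lower (11.5%, against 10.6% of all genes).

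Among 15 regulators of mitochondrial biogenesis, 6 were lower (40%) and 1 was higher (6.67%), against 15.3% and 18.5% of all genes. NRF1, whose core was searched in the promoters, was at 5.02, 4.87 and 4.84 FPKM in parental libraries and at 2.85 to 3.46 in drug-resistant ones (log2 fold change -0.74, standard error 0.16, edgeR adjusted p = 0.00621). The groups did not overlap. TFAM, which packages mitochondrial DNA and helps to start its transcription, was at 20.7, 17.8 and 9.20 FPKM in parental libraries and at 5.97 to 9.71 in drug-resistant ones, with PR replicate 1 above the lowest parental library (log2 fold change -1.28, standard error 0.26, edgeR adjusted p = 0.00488). GABPB1, a subunit of the ETS factor GABP, fell by 0.80 on the log2 scale, MYC fell by 0.95, TFB1M by 0.66 and YY1 by 0.56. The coactivator gene PPARGC1A went the other way, from 0.324, 0.449 and 0.614 FPKM to 1.02 to 1.65 (log2 fold change 1.42, standard error 0.31, edgeR adjusted p = 0.0064), at a low level. ESRRA was not called at -0.02.

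Proliferation genes were lower as well in the pooled comparison. Their share of TPM was 0.170%, 0.176% and 0.118% in parental replicates 1, 2 and 3. The members' share there was 2.24%, 2.68% and 2.00%, which is the same order. Among drug-resistant libraries the order differed. The proliferation share was 0.031% in CR, 0.047% and 0.026% in PR replicates 1 and 2, and 0.028% in DR. The members' share was 1.85% in CR, 1.59% and 1.64% in PR, and 2.12% in DR. All 8 of the list, such as TOP2A and MKI67, were lower in drug-resistant cells at a median of -3.51, and their summed share of TPM was 0.118% to 0.176% in parental and 0.026% to 0.047% in drug-resistant libraries. Their part in the respiratory genes' levels was not tested. Of 9 hypoxia targets tested, 3 were higher (33.3%) and 2 lower (22.2%), against 18.5% and 15.3% of all genes.

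TS culture gave no call among the members. With the cell line as covariate, 0 of 81 members differed between TS and 2D libraries by edgeR, where 0.191% of 18372 genes were called. At so low a share a set of this size would mostly hold no call. None of the members had an unadjusted edgeR p under 0.05, against 1363 of the 18372 genes. DESeq2 and limma called 0 members as well, against 519 and 29 of all genes. The members' median log2 fold change was 0.09 against -0.01 for all genes. H460 TS cells had 2.33% of their TPM in the 89 genes, within the parental range, and A549 TS cells had 1.84% beside 1.72% in A549 2D cells. NDUFC1 stood at 53.6 FPKM in H460 TS and at 24.5 in A549 TS cells, against 33.9 to 58.9 and 21.2 in 2D culture, and ATP5F1B at 1037 and 569 against 866 to 1187 and 566. No member was more than 2-fold apart in either TS library, where 3.89% of all genes in H460 and 9.73% in A549 were. The difference of the TS effect between the lines was called for 0 of 83 members (edgeR; 0 at an unadjusted p under 0.05; 0 by DESeq2 and limma), against 0.436% of 19941 genes, and its spread came from the 3 parental libraries alone.

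A549 cells had lower levels of some subunits than H460 cells. In the same fit of 6 libraries, 10 of 81 members were lower and 1 was higher, where 9.42% and 14.4% of all genes were called, so that the share of lower calls was near that of all genes. The members' median log2 fold change was -0.50 against 0.00. UQCRFS1 was the higher one, with 65.2 and 58.4 FPKM in A549 2D and TS cells against 21.9 to 33.7 in the 4 H460 libraries, without overlap (log2 fold change 1.11, standard error 0.22, edgeR adjusted p = 0.0141). It stood apart from its complex, in which UQCRH and UQCRQ had log2 fold changes of -0.92 and -0.97.

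NDUFS6, an accessory subunit of the N module, was at 94.8 and 87.6 FPKM in A549 and at 145 to 259 in H460 cells (log2 fold change -1.14, standard error 0.26, edgeR adjusted p = 0.0229). COX7C, a small subunit of complex IV, was at 203 and 247 FPKM against 397 to 678 (log2 fold change -1.07, edgeR adjusted p = 0.0446), and NDUFA4L2 at 0.599 and 0.562 against 1.45 to 2.51 (log2 fold change -1.91, edgeR adjusted p = 0.0265). NDUFS4 was at 51.9 and 47.9 FPKM against 89.8 to 138 and was called as well, and NDUFC1, ATP5F1D, NDUFS1 and ATP5F1B were the other lower genes, with log2 fold changes from -0.98 to -0.86. COX8A at 260 and 287 FPKM and NDUFB10 at 179 and 143 were not called. With the name form as covariate, or without the TS library or either A549 library, the count of lower members was 0 by edgeR, with 21, 15, 3 and 15 at an unadjusted p under 0.05 (name form, without TS, A549 2D and A549 TS). Without parental replicate 1 it was 3, and without parental replicate 2 it was 1. Among the alternatives run, the call of UQCRFS1 was lost only without the A549 2D library.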

How the data were processed

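Poly(A) RNA was sequenced as 10 TruSeq libraries. Per the submitters' processing notes, tools named were bcl2fastq 1.8.4, Trimmomatic, HISAT2 2.1.0 and StringTie 2.1.3b, with the build GRCh38. The read counts per gene were deposited by the authors without normalization, and the FPKM and TPM values were deposited by the authors as normalized for transcript length and library size. How reads shared between genes were counted is not given in the sources used here.

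Counts were tested with edgeR 4.0.16 in R 4.3.3 (TMM, filterByExpr, glmQLFit and glmQLFTest, Benjamini-Hochberg over all genes tested, threshold 0.05), and each standard error is the log2 fold change divided by the root of F. The 3 drugs were pooled in one comparison, so its spread includes differences between drugs. Alternatives were DESeq2 1.42.0, limma 3.58.1 on log2(FPKM + 1) or + 0.1, other factors, filters of none or 10 CPM, protein-coding genes only, the form of library name as covariate, a replicate block, and each library left out in turn. Precision is limited by the number of libraries, and counting error alone is what a count of 0 and its limit of 3 reads cover. Values were summarised with Python 3.11.15, numpy 2.4.6 and pandas 2.3.3, and drawn with matplotlib 3.10.9. Positions come from GENCODE 29.

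Members and lists were chosen with earlier results of these data known. Named are, per comparison, up to 8 called members with the largest rise and 8 with the largest fall, the isoform sets, the SDH genes and catalytic core subunits, the 3 called genes with the largest change of a list where it is described, and the regulators. Others were named after their values were seen. The result of 1 gene under this rule is not reported here. The lists gave, in drug-resistant cells, 0 of 4 epithelial, 1 of 1 lung, 4 of 5 fibroblast (3 higher), 1 of 3 leukocyte, 1 of 1 endothelial and 2 of 2 erythroid markers tested as called. Over all genes tested there, 15.3% were called lower and 18.5% higher.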

Additional observations from a re-analysis of the deposited data

Results flagged for a closer look

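One member stood out within a group. UQCRHL, the close copy of UQCRH, had a PR replicate 1 value of log2(FPKM + 1) whose gap to the nearest of the 4 drug-resistant libraries, divided by their range, was 0.846, above Dixon's 95% critical value for 4 samples. Its FPKM was 1.34 in PR replicate 1 and 2.26, 2.47 and 2.37 in CR, PR replicate 2 and DR, on 61 reads against 89 to 129. The 4 libraries come from 3 drugs, and chance flags about 1 in 20 groups.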

How the results depend on the processing

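Counts of called members, by setting. Lower in drug-resistant cells: 23, against 32 with DESeq2 and 18 and 19 with limma, then 14 with upper-quartile factors and 14 of 78 tested at 10 CPM. It was 37 with the name form as covariate, and 10 to 37 with 1 library left out. All genes called lower were 2823 of 18398 in the fit described and 2032 of 18398 with upper-quartile factors. They were 1600 of 9546 at 10 CPM, where the members' share was near that of all genes. Higher: 1, then 0 at 10 CPM, with limma at either pseudocount and with the name form, and 0 to 1 with 1 library left out. Lower in PR: 34, then 18 with upper-quartile factors, 19 with total counts only, 17 at 10 CPM, 16 and 15 with limma at pseudocounts of 1 and 0.1, and 0 to 47 with 1 library left out. Higher in PR: 1, then 2 with upper-quartile factors or total counts only, 0 at 10 CPM, with limma and with the name form, and 0 to 2 with 1 left out. The share of higher calls over all genes in PR was 62.2%, against 75.9% with upper-quartile factors, 74.9% with total counts only and 49.1% at 10 CPM.

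PR medians were -0.80, and -0.54 at 10 CPM and -0.51 and -0.52 with limma. With the replicate block, 52 members were lower and 1 higher in the 2 pairs of PR and parental libraries, against 47 and 2 for the same 4 libraries without it. Deviations of same-numbered libraries correlated at only 0.064 over 19430 genes, so the numbers were not taken as pairs. A549 against H460: 10 lower and 1 higher, then 27 and 2 with DESeq2, 6 lower without a filter, 5 at 10 CPM, 0 with the name form, and 0 to 15 lower and 0 to 1 higher with 1 library left out. The median difference of the TS effect between lines was 0.11, and -0.00959 (without parental replicate 2, so reversed) to 0.20 with 1 library left out. More than 2-fold apart: CR 2, then 1 with upper-quartile scaling and 5, 9 and 1 against parental replicates 1, 2 and 3; DR 1, then 3 with a pseudocount of 0.1, 5 with upper-quartile scaling and 6 against parental replicate 3; H460 TS 0, then 1 and 3 against parental replicates 2 and 3; A549 TS 0, then 1 with a pseudocount of 0.1. The cause of these shifts was not tested. The drug-resistant median stayed between -0.65 and -0.30 in the alternatives run, and TS members gave 0 calls in each.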
